A study of Mus musculus with 16 samples.

Results

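The CpGs of 8 genes that write, copy or protect DNA methylation were followed by reduced representation bisulfite sequencing (RRBS) in mouse embryonic stem cells (mESCs). The genes were Dnmt1, Uhrf1, Dnmt3a, Dnmt3b, Dnmt3l, Zfp57, Trim28 and Dppa3, 8 of the 37310 genes of the annotation. They were taken by name, with earlier results of these data known. A CpG counted as promoter within 2 kb of an annotated transcription start site (TSS), and as body elsewhere inside the gene. Of the 1320646 CpGs read in any library, 710 belonged to these genes, and 177 of them had reads in all 16 libraries. All cells were E14, an mESC line of 129/Ola origin grown in serum with LIF. Each of the 8 conditions had 2 replicates. Young-passage (YP-mESCs) and old-passage cells (OP-mESCs) were the same line kept for few or for many passages. OP-S33Y #1 and OP-S33Y #2 were 2 single clones of it that overexpress the stable S33Y form of β-catenin and were passaged for as long as the OP-mESCs. The other 8 libraries came from E14 mESCs, young-passage by the paper's account, transduced with a control shRNA (shCtrl) or with shβcat #1 against β-catenin. They were sampled as mESCs and as embryoid bodies (EBs), the mixed differentiating aggregates that form once LIF is withdrawn. The first 4 conditions are called the passage set here and the last 4 the shRNA set. The sets differ in transduction, passage and, for the EBs, culture, and the sources used here do not say that their libraries were handled alike. A difference between the sets cannot be assigned to any of these, and all tests stay within a set.

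In mammals Dnmt1 copies methylation onto the new strand after replication, and Uhrf1 brings it to the half-methylated sites. Dnmt3a and Dnmt3b set methylation anew, helped in germ cells and early embryos by Dnmt3l, which has no catalytic activity of its own. Zfp57, a zinc finger protein that binds methylated imprinting control regions, recruits Trim28 (KAP1), a scaffold for histone and DNA methyltransferases, and together they keep imprints through the reprogramming of the early embryo. Dppa3 (Stella, PGC7) protects the maternal genome from demethylation in the zygote. It is also a marker of naive mESCs, and its promoter is known to gain methylation on differentiation. RRBS reads mostly the CpG-dense part of the genome, and methylation is not expression, so these data say nothing of the level of any of the 8 transcripts.

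Coverage differed strongly between the genes. Dnmt3a had 72 promoter CpGs with reads in all 16 libraries, Dnmt3b 25, Dnmt1 20, Uhrf1 13 and Dppa3 5. The 8 CpGs of the Zfp57 promoter and the 16 of the Trim28 promoter were read in 15 libraries, all but OP-mESC replicate 2, which covered the fewest CpGs of the series. Among the bodies, Dnmt1 had 19 such CpGs, Dnmt3a 10, Dnmt3b 9 and Uhrf1 4. The Trim28 body had no CpG in any library, and the Dppa3 body (2 CpGs) and the Zfp57 body (4 CpGs) were read in a few libraries. No CpG of Dnmt3l was read in all 16. Summed over a window, a library had 22 to 9919 reads behind a value. YP-mESC replicate 2 had no reads on chromosome 13, where none of the 8 genes lies. The promoter window of Dnmt3a joins 13 TSSs spread over the gene. That of Dnmt3b overlaps the antisense transcript 7530422B04Rik, and that of Dnmt3l overlaps Aire. The promoter window of Zfp57 joins 9 TSSs over 7360 bases. Its 8 CpGs lie in an intron, 1634 to 1754 bases inside the gene from its outermost TSS. The promoter CpGs of Dppa3 read in all libraries lie 2244 to 2273 bases inside the gene from its outermost TSS, in a coding exon, and count as promoter because of a second annotated TSS.

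The labels mESC and EB were set beside promoters of genes of undifferentiated mESCs. The promoter of Pou5f1 averaged 0.09% in shCtrl mESCs and 15.4% in shCtrl EBs, that of Esrrb 10.8% and 25.2%, and that of Zfp42 12.04% and 33.2%. All 3 rose in EBs (adjusted p = 5.98e-05, 6.60e-05 and 0.00128). This describes the labels and cannot check a cell type or the silencing of β-catenin itself, and in a mixed aggregate a rise in some cells and a smaller rise in all cells give the same mean.

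The stretches on which the differences below turn are given here in NCBIM37 (mm9), read on the strand of the gene, with the CpGs that had reads in any library in capitals. They were picked for their differences in these same libraries, so that calls of their CpGs describe them and are no separate support. The Zfp57 promoter is shown beside them as a CpG-dense stretch that stayed unmethylated.
Dppa3 coding exon, chr6:122578672-122578702: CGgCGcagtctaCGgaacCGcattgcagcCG
Dppa3 intron, chr6:122577686-122577723: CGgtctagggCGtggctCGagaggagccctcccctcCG
Uhrf1 upstream, chr17:56442236-56442289: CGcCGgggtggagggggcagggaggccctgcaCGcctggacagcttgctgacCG
Dnmt1 intron, chr9:20748184-20748259, minus strand: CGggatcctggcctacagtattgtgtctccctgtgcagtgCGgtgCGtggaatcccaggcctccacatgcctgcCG
Dnmt1 intron nearer the TSS, chr9:20748591-20748680, minus strand: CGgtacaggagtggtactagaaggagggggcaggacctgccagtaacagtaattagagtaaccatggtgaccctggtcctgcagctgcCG
Dnmt3a intron, chr12:3871756-3871919: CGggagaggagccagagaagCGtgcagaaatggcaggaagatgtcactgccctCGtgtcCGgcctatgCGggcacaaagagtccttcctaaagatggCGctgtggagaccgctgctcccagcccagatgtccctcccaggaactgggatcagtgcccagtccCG
Zfp57 last exon, chr17:37146543-37146574: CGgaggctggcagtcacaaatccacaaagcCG
Zfp57 promoter, chr17:37139742-37139863: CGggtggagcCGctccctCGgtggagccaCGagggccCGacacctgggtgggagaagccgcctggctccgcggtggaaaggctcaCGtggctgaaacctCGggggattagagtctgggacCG

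CpG-dense stretches near the outermost TSSs of Dnmt1, Dnmt3a and Dnmt3b, and after that of Uhrf1, lay under 10% in every library. So did the CpGs read in the Zfp57 and Trim28 promoter windows, in 15 libraries without OP-mESC replicate 2. Grouped into runs of 3 or more CpGs with reads in all 16 libraries and gaps of at most 400 bases, the genes gave 16 stretches with 166 CpGs. Of these, 6 lay under 10% in every library and 4 over 70% in every library. The condition means of 6 others spanned 20 points or more, and the stretches shown above for Dppa3 (coding exon), Uhrf1 (upstream), Dnmt1 and Dnmt3a are among them. The 23 CpGs around the start of Dnmt3b ranged from 0.06% to 1.38% over the 16 libraries, and the 26 CpGs after the outermost TSS of Dnmt3a from 0.00% to 0.79%. The Trim28 promoter ranged from 0.0% to 0.7% and the Zfp57 promoter from 0.0% to 1.7% over 15 libraries. The Trim28 promoter was at 0 in 5 of these, where the read counts allow up to 0.72%, and the Zfp57 promoter in 7, where they allow up to 2.21%. These limits are 3 reads of the total and cover counting error only.

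Not every CpG that counts as promoter was unmethylated. In Uhrf1, 3 CpGs upstream of the TSS stood at 6.06% to 25.9% in the passage set. They stood at 24.8% to 43.4% in mESCs of the shRNA set and at 76.1% to 84.2% in EBs. In Dnmt3a, 5 CpGs near an internal TSS stood at 84.5% to 97.6% in all 16 libraries, while 4 CpGs near another internal TSS stood at 0.0% to 3.6%. The Dnmt3a window mean of 6.3% to 8.0% joins such stretches and describes none of them. In Dnmt3b, the CpGs at -1476 and -1437 bases from the TSS were methylated in every library, at 57.1% to 100.0%. The Dnmt3l CpGs that counted as promoter in the shRNA set averaged 90% or more in each library over the 4 read in all 8, but they lie in a coding exon about 15 kb from the outermost TSS. The bodies of Dnmt1, Dnmt3b, Uhrf1 and Dnmt3l were mostly methylated, the common state of a gene body.

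**Figure D1:**
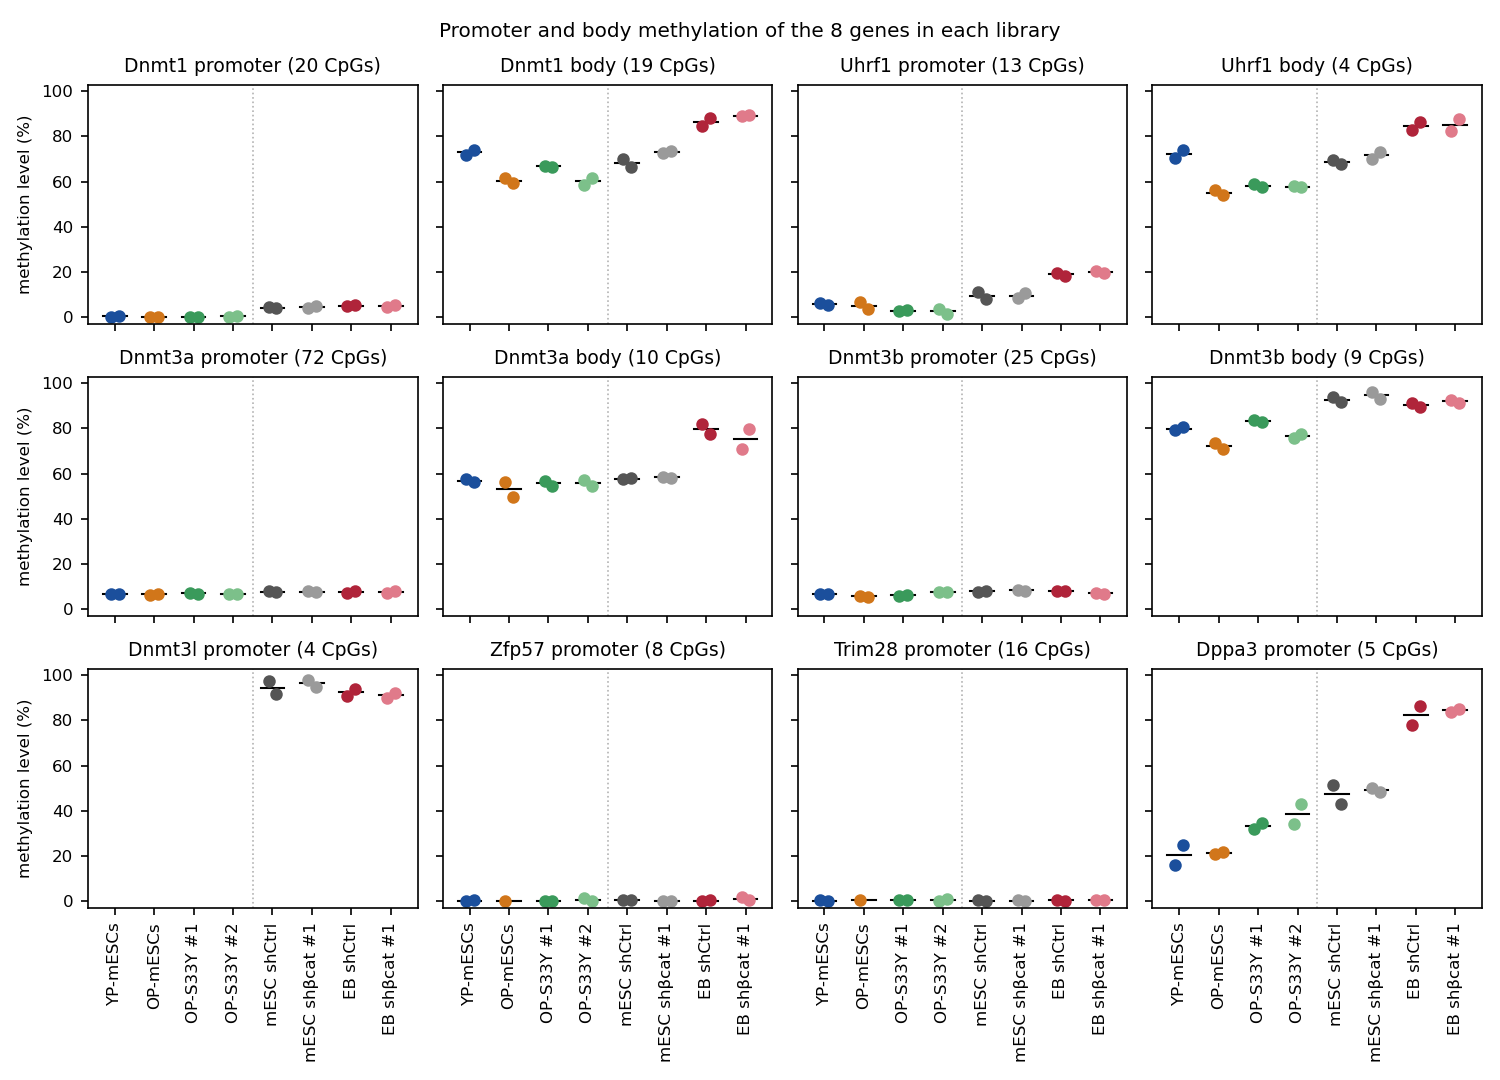
Methylation level (% of reads, mean over the CpGs of a window) of the promoters and bodies of the 8 genes. Each point is a library, the bar is the mean of the 2 replicates, and the dotted line parts the passage set from the shRNA set. The CpGs are those read in all 16 libraries, in 15 (Zfp57, Trim28) or in the 8 of the shRNA set (Dnmt3l). In the Dppa3 promoter the EB libraries stand at 78.0% to 86.6%, above the mESC libraries of the shRNA set at 42.9% to 51.5%, while the Zfp57 and Trim28 promoters stay below 2% throughout.

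The low promoter levels of the shRNA set differed by sequence context. The CpGs compared were under 10% in YP-mESCs, read in 15 libraries, and in the promoters of Dnmt1, Dnmt3a, Dnmt3b, Uhrf1, Zfp57 and Trim28. The 36 inside the letters CCGG, the site of MspI, the enzyme usual in RRBS, stood at 5.17% to 7.76% in the 8 shRNA libraries. In the passage set they stood at 0.04% to 0.91%. The 168 other CpGs of those promoters stood at 0.24% to 0.77% and 0.23% to 0.40%. Over the promoters of all genes the MspI CpGs likewise stood at 5.96% to 10.2% in the shRNA set and at 0.67% to 1.25% in the passage set. The higher level of the Dnmt1 promoter in the shRNA set (3.77% to 5.23%, against 0.06% to 0.52% in the passage set, 20 CpGs) moved with this: over its 12 CpGs outside MspI sites the highest library stood at 0.74%. The Uhrf1 promoter (13 CpGs) stood at 1.40% to 6.48% in the passage set, 7.88% to 10.8% in mESCs of the shRNA set and 18.3% to 20.3% in EBs. Over its 9 CpGs outside MspI sites these were 0.67% to 5.52%, 3.63% to 5.78% and 8.78% to 10.1%. The cause was not tested, and no test compares the sets.

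**Figure D2:**
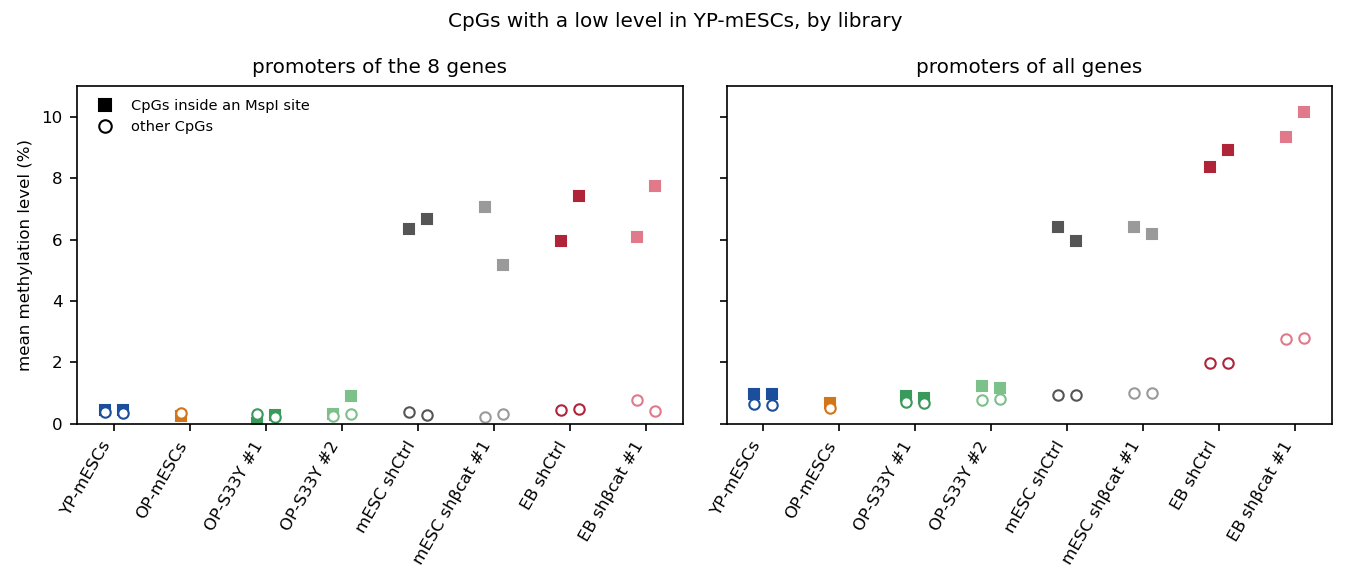
Mean methylation level (%) of promoter CpGs under 10% in YP-mESCs, for Dnmt1, Dnmt3a, Dnmt3b, Uhrf1, Zfp57 and Trim28 (left) and all promoters (right). Squares are CpGs inside an MspI site and open circles the other CpGs, with 1 symbol per library, without OP-mESC replicate 2. The squares lie between 5.17% and 10.2% in the shRNA set and at or below 1.25% in the passage set.

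EBs against mESCs gave the largest differences at these genes. With shCtrl, 1 of 8 promoters (Dppa3) and 4 of 6 bodies (Dnmt1, Dnmt3a, Uhrf1, Zfp57) rose, and none fell. Of all genes, 17% of promoters and 32.7% of bodies rose, and 0.151% of promoters and bodies together fell. With shβcat #1, the Dppa3 promoter and 3 of 5 bodies (Dnmt1, Dnmt3a, Uhrf1) rose, against 19.9% of promoters and 25.2% of bodies. The median body difference of the members was 12.7 points with shCtrl and 8.28 with shβcat #1, beside 4.63 and -0.07 for all bodies. A window was called at an adjusted p under 0.05, over all promoters and bodies, with condition means at least 5 points apart. The p is of summed reads and the difference is of mean CpG percentages, so that they can disagree. Of single CpGs, 28 of 501 were called with shCtrl and 28 of 507 with shβcat #1, at an adjusted p under 0.05 and more than 25 points, where 6.39% and 6.57% of all CpGs were called. Without the CpGs in MspI sites, an alternative added after seeing the data, 14 and 12 were called, and at a minimum of 20 reads 17 with shCtrl. Both settings test fewer CpGs, and the share of all CpGs called there is not given. In the main setting all called CpGs were higher in EBs but 1, in the Dnmt3b promoter with shβcat #1. Of the CpGs higher in EBs, 24 were called with both shRNAs, 85.7% of the shCtrl list and 88.9% of the shβcat #1 list. The 2 contrasts share no library. The overlap over all CpGs is not given, so that this share cannot be called particular to these genes.

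The promoter of the protector Dppa3 rose with both shRNAs. Over the 5 CpGs of its coding exon the level was 51.5% and 42.9% in the shCtrl mESC libraries, 50.0% and 48.2% with shβcat #1, 78.0% and 86.6% in shCtrl EBs and 83.6% and 85.2% in shβcat #1 EBs. Every EB library lay above every mESC library, a description without the share of all promoters beside it. Over all 10 CpGs read in the 4 shCtrl libraries, the window went from 35.6% to 69.3%, a rise of 33.7 points (adjusted p = 0.000131). With shβcat #1 it went from 37.1% to 72.6% over 9 CpGs, a rise of 35.5 points (adjusted p = 0.000174). Nearer to the TSS lie 4 intron CpGs, at 1258 to 1294 bases. That at 1275 bases stood at 7.1% in shCtrl mESCs and 53.4% in shCtrl EBs (adjusted p = 1.17e-05), and at 4.2% and 51.3% with shβcat #1 (adjusted p = 1.86e-08). That at 1294 bases ranged from 12.5% to 63.0% in mESCs and from 30.0% to 61.9% in EBs and was not called. With the promoter limited to 1 kb around the TSSs, which leaves the exon out, the rise was 34.9 and 35.7 points. Only 2 to 4 libraries, all of the shRNA set, had reads within 500 bases of the TSS, and there the CpGs stood at 66.7% to 100.0% in mESCs and EBs alike.

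Zfp57, the DNA-binding partner, stayed unmethylated in EBs at the intron CpGs that count as its promoter. They stood at 0.0% and 0.3% with shCtrl and 1.7% and 0.4% with shβcat #1, and the rest of that window was not read there. Its body rose, though on 2 CpGs of the last exon and 22 to 50 reads a library. The level was 21.4% and 28.9% in shCtrl mESCs and 91.7% and 59.1% in shCtrl EBs, a rise of 50.2 points (adjusted p = 0.0227). Both EB libraries lay above both mESC libraries, a description without the share of all bodies beside it. EB shβcat #1 replicate 1 stood at 93.8% at each of these CpGs, and replicate 2 had no reads there. The call was lost without EB shCtrl replicate 1 (33.9 points), mESC shCtrl replicate 1 (46.4 points) or mESC shCtrl replicate 2 (54.0 points). Such fits have 1 residual degree of freedom. Trim28, its scaffold partner, could be read only at its promoter, where EB libraries stood at 0.0% to 0.5%.

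Among the maintenance genes, Uhrf1 showed both states side by side. The 10 CpGs 905 to 990 bases after the TSS stood at 0.0% to 2.8% in all 16 libraries. The 3 CpGs upstream of the TSS, at -505 to -456 bases, stood at 43.4% and 24.8% in shCtrl mESCs, 35.8% and 40.4% with shβcat #1, 80.2% and 76.1% in shCtrl EBs and 84.2% and 83.7% in shβcat #1 EBs. All 3 CpGs were called in both contrasts, by 30.7 to 56.2 points with shCtrl (adjusted p = 2.00e-07 to 0.0289) and by 38.7 to 50.6 points with shβcat #1 (adjusted p = 9.21e-10 to 0.000225). The whole promoter window averages these with unmethylated CpGs. Over 40 CpGs it went from 3.5% and 2.6% to 7.1% and 6.5% with shCtrl, which was not called (adjusted p = 0.0929). With shβcat #1 the difference was 3.95 points (adjusted p = 0.0451), under the 5 points asked. At a minimum of 20 reads the window was called with both shRNAs (6.31 and 6.24 points). The body of Uhrf1, read at 15 CpGs, stood at 73.5% and 67.4% in shCtrl mESCs and 88.8% and 87.9% in shCtrl EBs, a rise of 17.9 points (adjusted p = 0.00135). With shβcat #1 it rose by 13.2 points, from 75.3% and 78.2% to 89.4% and 90.5% (adjusted p = 0.00744). The shβcat #1 call was lost when transcripts of every biotype gave TSSs (0.75 points), at a minimum of 20 reads (9.75 points) and without EB shβcat #1 replicate 2 (9.10 points) or mESC shβcat #1 replicate 1 (11.7 points).

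The body of Dnmt1 stood at 79.2% and 76.9% in shCtrl mESCs and at 89.7% and 91.7% in shCtrl EBs over 49 CpGs, a rise of 12.6 points (adjusted p = 0.000103). With shβcat #1 it rose by 10.3 points, from 79.8% and 80.1% to 89.6% and 90.9% (adjusted p = 0.000235). EB and mESC libraries did not overlap in either contrast, a description without the share of all bodies beside it. The widest span was that of the 6 intron CpGs 8638 to 9133 bases from the TSS. Their mean was 28.3% and 27.8% in shCtrl mESCs, 38.4% and 36.9% with shβcat #1, 69.1% and 77.2% in shCtrl EBs and 77.5% and 83.7% in shβcat #1 EBs. All 6 were called in both contrasts, by 25.7 to 59.2 points. The stretch was picked by its span in these same libraries, so that these calls describe it and are no separate support. At the far end of the gene the 5 CpGs of a coding exon differed little, at 80.8% to 89.0% in mESCs of the shRNA set and 88.8% to 92.5% in EBs. The promoter of Dnmt1 differed by 0.44 and 0.27 points (adjusted p = 0.153 and 0.324).

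Of the de novo enzymes, Dnmt3a rose in its body, and no window of Dnmt3b was called. Over 23 CpGs the Dnmt3a body stood at 65.3% and 63.4% in shCtrl mESCs and 77.7% and 76.6% in shCtrl EBs, a rise of 12.8 points (adjusted p = 0.000458). With shβcat #1 it rose by 8.28 points, from 68.0% and 66.7% to 72.9% and 78.4% (adjusted p = 0.0272). That call was lost at a minimum of 20 reads (3.27 points) and without EB shβcat #1 replicate 2 (3.21 points), mESC shβcat #1 replicate 1 (8.95 points) or replicate 2 (7.61 points). The rise was local. In an intron 65229 to 65391 bases from the outermost TSS, 6 CpGs averaged 1.60% to 5.18% in shCtrl mESCs and 41.0% to 66.5% in shCtrl EBs (adjusted p = 5.90e-23 to 6.84e-06). With shβcat #1 they averaged 0.00% to 7.52% and 52.2% to 71.7%. The 4 of them read in all 16 libraries stood at 0.83% to 8.79% in every mESC library of both sets and at 56.2% to 73.2% in the 4 EB libraries. The 6 CpGs of the 3′ end of Dnmt3a stood at 92.7% to 96.1% in mESCs of the shRNA set and 80.4% to 92.0% in EBs. The body of Dnmt3b stood at 92.9% and 93.4% in shCtrl mESCs and 91.2% and 91.0% in shCtrl EBs (-2.05 points, adjusted p = 0.270). The CpG at -1476 bases from the Dnmt3b TSS was the only member CpG called lower in EBs, at 72.8% against 100.0% with shβcat #1 (adjusted p = 8.54e-05). For Dnmt3l, the regulatory partner, the promoter differed by 0.15 points with shCtrl (5 CpGs) and by -5.26 points with shβcat #1 (4 CpGs). Its 2 body CpGs differed by 3.89 points with shCtrl and 1.11 points with shβcat #1. None was called.

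**Figure D3:**
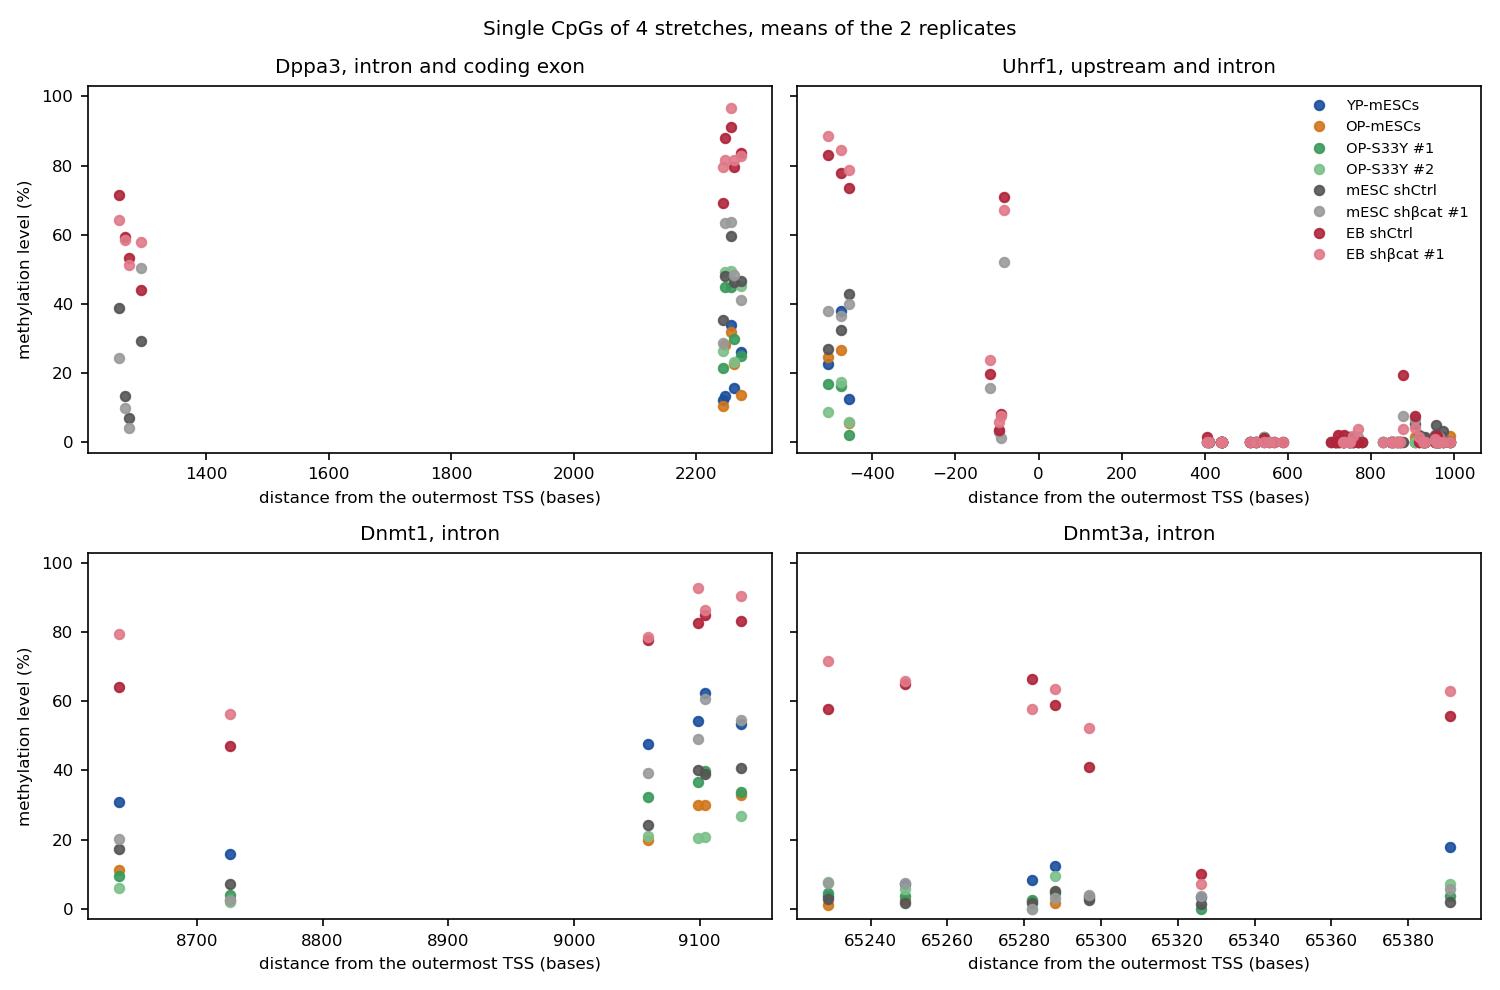
Methylation level (%, mean of the 2 replicates) of single CpGs against their distance from the outermost TSS (bases), in 4 regions of Dppa3, Uhrf1, Dnmt1 and Dnmt3a, coloured by condition. A point is drawn where both replicates had reads. In the Dnmt3a intron the EB means lie between 41.0% and 71.7% at 6 CpGs where the mESC conditions of the shRNA set stay at or below 7.52%, and in Uhrf1 the CpGs at -505 to -456 bases separate from the unmethylated CpGs after the TSS.

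OP-mESCs against YP-mESCs asks what prolonged culture does to these genes. Of the maintenance genes, the bodies of Dnmt1 and Uhrf1 fell, and no member was called higher. The Dnmt1 body stood at 72.5% and 75.0% in YP-mESCs and 62.4% and 60.7% in OP-mESCs over 20 CpGs, (-12.22 points, adjusted p = 0.0118). The Uhrf1 body stood at 70.4% and 74.1% in YP-mESCs and 56.2% and 54.1% in OP-mESCs over 4 CpGs (-17.12 points, adjusted p = 0.0129). The OP and YP libraries did not overlap in either body, a description only, since the share of all bodies without overlap is not given. Dnmt1 and Uhrf1 were 2 of 4 bodies tested, where 32.1% of all bodies fell. The median body difference of all genes was -7.01 points, beside -9.88 for the 4. Both calls were lost when any 1 library was left out, which leaves 1 residual degree of freedom. The differences then were -13.48 to -7.96 (Dnmt1) and -22.67 to -16.60 points (Uhrf1). Without the sparse OP-mESC replicate 2 they were -7.96 and -22.67 points. The share of all windows still called is not given, so that the losses cannot be read as a weakness of these genes. When transcripts of every biotype gave TSSs, the Uhrf1 body differed by -6.12 points and was not called.

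At single CpGs, 3 of 204 were called, all lower and all in Dnmt1, where 2.48% of all CpGs were called in either direction. The intron CpG 9104 bases from the TSS went from 62.4% in YP-mESCs to 30.1% in OP-mESCs (adjusted p = 0.000224). Over the 6 CpGs of that stretch the level was 40.7% and 47.3% in YP-mESCs and 26.3% and 15.9% in OP-mESCs. This is the stretch that was higher in EBs of the shRNA set. The de novo enzymes differed less. The body of Dnmt3b stood at 79.2% and 80.5% against 73.5% and 71.1% (-7.54 points, adjusted p = 0.110), and that of Dnmt3a at 57.5% and 56.2% against 56.5% and 49.4% (-3.91 points, adjusted p = 0.0163), under the 5 points asked of a call. No promoter was called. That of Dppa3 stood at 15.9% and 24.7% in YP-mESCs and 20.8% and 21.9% in OP-mESCs (1.06 points, adjusted p = 0.828). The promoters of Zfp57 and Trim28 had no test here, and the 1 OP-mESC library with reads stood at 0.0% for Zfp57 and 0.3% for Trim28.

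The S33Y clones against YP-mESCs and OP-mESCs ask whether cells with stable β-catenin, passaged as long, resemble the young or the old cells at these genes. The comparisons with YP-mESCs share the YP libraries and those with OP-mESCs share the OP libraries, so that they are given side by side. In clone #2 the bodies of Dnmt1 and Uhrf1 fell against YP-mESCs, as 2 of 4 bodies, where 7.83% of all bodies fell. The Dnmt1 body stood at 79.2% in both YP libraries and at 70.1% and 69.8% in the clone over 41 CpGs (-9.22 points, adjusted p = 0.0153). The Uhrf1 body stood at 77.3% and 74.1% in YP-mESCs and 59.4% and 56.1% in the clone over 13 CpGs (-17.96 points, adjusted p = 0.0147). Both calls were lost without any 1 library, with differences of -9.36 to -8.34 and -19.61 to -16.32 points. Such fits have 1 residual degree of freedom. The Uhrf1 call was also lost when transcripts of every biotype gave TSSs (-11.08 points, adjusted p = 0.279). In clone #1 the same bodies differed from YP-mESCs by -3.62 and -12.41 points (adjusted p = 0.278 and 0.0893), and no member was called, where 1.33% of all windows were. Of the 11 member windows, 5 had an unadjusted p under 0.05, with no share of all windows at that p to set beside them. Over CpGs read in all 16 libraries both bodies were called in clone #1 too (Dnmt1 -6.28 points, adjusted p = 0.0187, and Uhrf1 -14.01 points, adjusted p = 0.0470). Between the clones no member window of 11 was called, where 0.251% of all windows were. At an unadjusted p under 0.05 there was 1, the Dnmt3b body (-6.68 points). The single CpGs called against YP-mESCs were 1 of 374 in clone #1 and 4 of 360 in clone #2, with 0.303% and 0.847% of all CpGs. None of 347 was called between the clones, where 0.309% of all were and 14 of the 347 had an unadjusted p under 0.05. For these unadjusted counts too the share of all features is not given.

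Dppa3 was higher in both clones than in OP-mESCs. Its 5 CpGs stood at 32.0% and 34.5% in clone #1 and 34.1% and 43.1% in clone #2, above both OP libraries (20.8% and 21.9%) and both YP libraries. This is a description without the share of all promoters beside it. The promoter rose against OP-mESCs by 11.9 points in clone #1 (adjusted p = 0.0263) and by 17.3 points in clone #2 (adjusted p = 0.0315). It was the 1 member of 5 promoters that rose in each, where 8.48% and 4.1% of all promoters rose. Against YP-mESCs it differed by 12.9 and 18.4 points and was not called (adjusted p = 0.183 and 0.0581). The same differences were called there when all windows were limited to CpGs read in all 16 libraries (adjusted p = 0.0327 and 0.015). That of clone #2 was also called at a minimum of 20 reads (adjusted p = 0.0201) and with a shared overdispersion (adjusted p = 0.00415). With a replicate block no member window was called in clone #2 against YP-mESCs. Without any 1 library the calls against OP-mESCs were lost, with differences of 10.7 to 13.1 points in clone #1 and 12.8 to 21.8 points in clone #2. Such fits have 1 residual degree of freedom. At single CpGs, 1 of 201 was called in clone #1 and 1 of 208 in clone #2 against OP-mESCs, where 2.42% and 0.711% of all CpGs were. The one in clone #2 was the last CpG of the Dppa3 coding exon, at 45.1% against 13.7% (adjusted p = 0.0170).

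The body of Dnmt3b was called in clone #1 against OP-mESCs. It stood at 83.6% and 83.0% in the clone and 73.5% and 71.1% in OP-mESCs over 9 CpGs, a rise of 11.03 points (adjusted p = 0.00670), as 1 of 4 bodies, where 38.1% of all bodies rose. This call too was lost without any 1 library, with 1 residual degree of freedom and differences of 9.18 to 12.24 points. A CpG in an intron of Dnmt3b, 27439 bases from the TSS, was called alone, at 90.5% against 63.1% (adjusted p = 0.00306). In clone #2 the body stood at 75.7% and 77.6% and was not called against OP-mESCs (4.35 points, adjusted p = 0.219). The bodies of Uhrf1 differed from OP-mESCs by 9.50 and 10.1 points in clones #1 and #2 and were not called (adjusted p = 0.218 and 0.245). That of Dnmt1 stood at 69.2% and 68.4% in clone #1 and 60.5% and 63.7% in clone #2, against 63.5% and 61.9% in OP-mESCs (6.04 and -0.63 points, adjusted p = 0.875 and 0.336). These adjusted p are of summed reads and do not test the differences of CpG means beside them. In clone #1 the bodies of Uhrf1 and Dnmt1 did not overlap with OP-mESCs, a description without the share of all bodies beside it. The promoters of Dnmt1, Dnmt3a, Dnmt3b and Uhrf1 differed from OP-mESCs by -2.58 to 1.96 points in the clones, none called. Those of Zfp57 and Trim28 stood at 0.0% to 1.1% in the S33Y libraries.

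**Figure D4:**
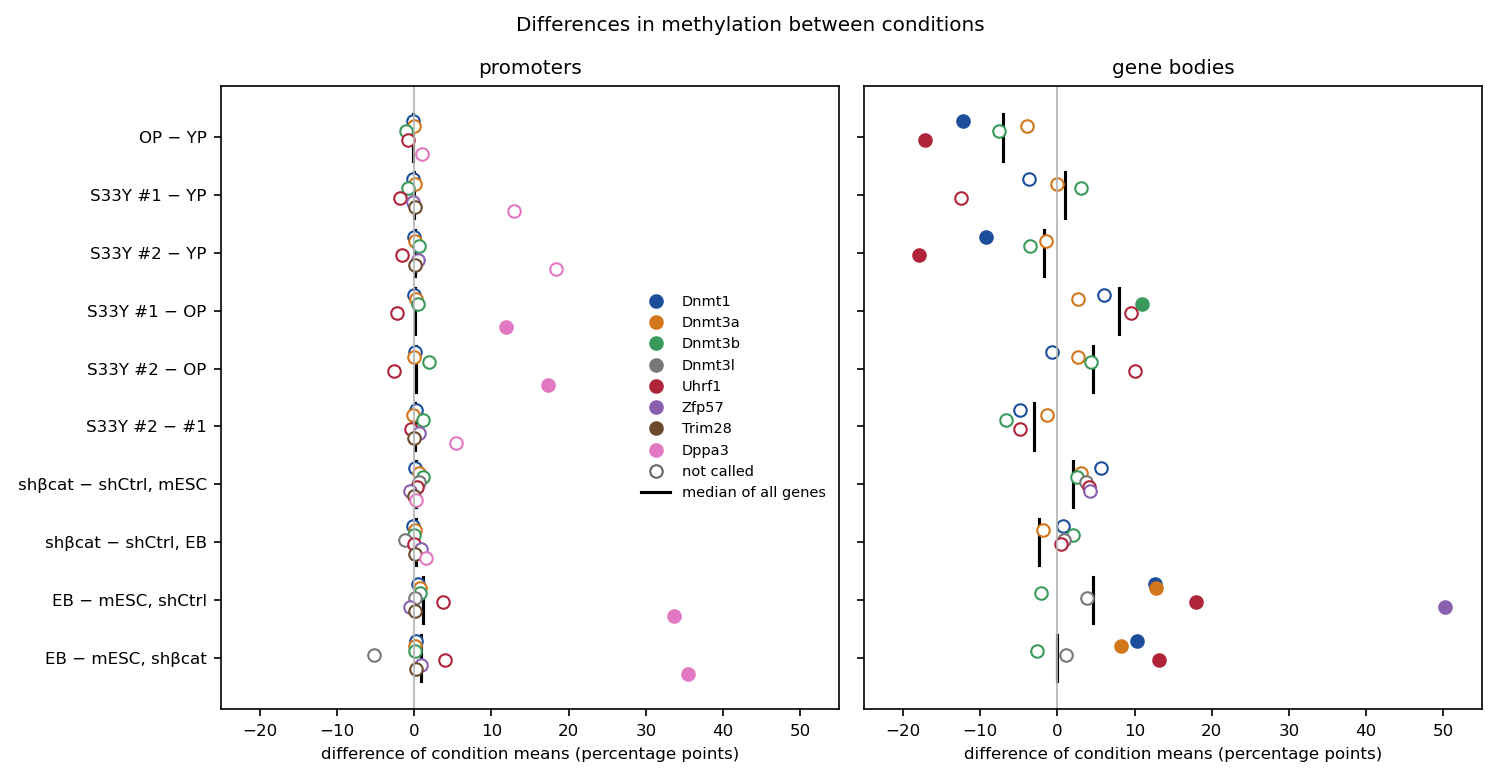
Difference of condition means (percentage points) in promoters (left) and bodies (right) of the 8 genes, for the 10 comparisons. Filled points were called (adjusted p under 0.05 and at least 5 points), open points were not, and the vertical black line is the median of all genes. Among promoters only that of Dppa3 has filled points, between 11.9 and 35.5 points. Among bodies the points lie left of zero for OP against YP and mostly right of it for EB against mESC.

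Silencing of β-catenin was compared within mESCs and within EBs. No window of the 8 genes was called in either, among 14 tested in mESCs and 13 in EBs, where 0.0945% and 0.959% of all windows were called. At an unadjusted p under 0.05 there was 1 window in mESCs, the Dnmt1 body, and none in EBs. The Dnmt1 body stood at 78.1% and 73.9% with shCtrl and 81.5% and 82.0% with shβcat #1 in mESCs, 5.71 points apart (adjusted p = 0.158). In EBs it stood at 88.2% and 91.0% and at 89.8% and 90.9%. Promoter differences between the shRNAs ran from -0.53 to 1.09 points in mESCs and from -1.26 to 1.54 points in EBs. None of 514 CpGs in mESCs and none of 498 in EBs was called, where 0.107% and 0.082% of all were. At an unadjusted p under 0.05 there were 20 and 14, with no share of all CpGs at that p to set beside them. Fisher's exact test on the summed reads also called none in either. The test of whether the shRNA difference itself differed between EBs and mESCs called no member window, where it called 1.15% of all windows. The smallest adjusted p was that of the Dnmt1 body (0.313), with a difference of differences of -5.34 points.

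The 5 CpGs of the Dppa3 coding exon, of which 1 lies in an MspI site, are given here for every condition, within each set from low to high. In the passage set the level was 20.3% ± 6.20 (SD, n = 2) in YP-mESCs, 21.3% ± 0.77 in OP-mESCs, 33.2% ± 1.75 in OP-S33Y #1 and 38.6% ± 6.35 in OP-S33Y #2. In the shRNA set it was 47.2% ± 6.07 in shCtrl mESCs, 49.1% ± 1.29 in shβcat #1 mESCs, 82.3% ± 6.05 in shCtrl EBs and 84.4% ± 1.15 in shβcat #1 EBs. The neighbours YP and OP, both clones, both shRNA mESC conditions and both EB conditions overlapped in their libraries. It was the only member promoter whose condition means, over CpGs read in all 16 libraries, spanned 20 points or more (64.1 points), as did 2419 other promoters. The promoters whose means followed it most closely over the 8 conditions were those of Apbb1ip (Pearson r = 0.996, 4 CpGs, 2.34% to 34.5%), Ucn and Gm15469 (r = 0.990 each, with the same 18 CpGs). Both the span and r join the 2 sets and are descriptions.

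The other genes of these pathways, 52 genes in 6 lists, were counted in the same way. Against YP-mESCs, OP-mESCs had 15 of 51 windows lower and none higher, where 17.1% of all windows, promoters and bodies together, were lower. These included the bodies of Cdca7, an activator of the chromatin remodeller HELLS (-35.71 points, adjusted p = 0.000281), and Setdb1, the histone methyltransferase that Trim28 recruits (-24.87 points, adjusted p = 0.00109), and the promoter of Tet1, a demethylating dioxygenase (-27.94 points, adjusted p = 0.00155). Padi6 and Mbd2 were the next (-16.55 and -15.42 points in the body). Against YP-mESCs, 3 of 60 windows were lower in clone #1 and 10 of 62 in clone #2, none higher, where 0.849% and 4.44% of all windows were lower. The Tet1 promoter was among them in both clones (-22.38 and -18.28 points), and in clone #2 so were the bodies of Cdca7 (-19.78 points), Setdb1 (-16.61), Zbtb4 (-13.56) and Usp7 (-12.98). Against OP-mESCs, 7 of 56 windows were higher in clone #1, with the Setdb1 body at 72.0% against 49.0%, and 1 of 55 in clone #2, the Cdca7 body, at 29.4% against 16.6%. Of all windows, 19.5% and 7.28% were higher.

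In EBs 27 of 72 windows of these lists rose with either shRNA and none fell, where 23.2% (shCtrl) and 22% (shβcat #1) of all windows rose. Of all windows, 0.151% fell with shCtrl and 7.21% with shβcat #1. With shCtrl the largest were the Zfp42 body (63.7 points), the Tet1 promoter (47.7), and the bodies of Ehmt2 (G9a, 42.0), Nsd1 (38.6) and Ctcf (34.7). With shβcat #1 they were the Zfp42 body (77.5 points), the Tet1 promoter (51.3), the Ooep promoter (38.9) and the bodies of Ehmt2 (36.1) and Cbx5 (35.3). By list, the bodies that rose with shCtrl were 3 of 8 for the KAP1 complex, 4 of 6 for the methylation partners, 4 of 5 for methyl-CpG readers, 5 of 6 for demethylation genes, 0 of 4 for maternal imprint factors and 2 of 2 for genes of undifferentiated mESCs, beside the 32.7% of all bodies given above. Between the shRNAs, 1 of 70 windows was called in EBs, where 0.837% of all windows were higher. It was the Zfp42 body, at 81.7% with shβcat #1 against 67.0% with shCtrl (adjusted p = 0.0415).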

How the data were processed

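DNA of 16 libraries was measured by RRBS. The authors trimmed the reads with Trim Galore 0.2.8 after CASAVA 1.8.2, aligned them to mm9 with Bismark 0.7.9 (the submitters' processing notes), and deposited, per CpG cytosine, a read count and the percent of reads methylated. The deposited counts were not normalized, replicates were not pooled, and cytosines under 10 reads are not listed. The labels name NuGEN RRBS kits, and the enzyme and the handling of duplicate reads are not given in the sources used here. Duplicates, if kept, would make reads less independent.

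Libraries held 18919219 to 40519010 reads on 413282 to 1152971 CpGs, with a median of 22 to 42 reads per CpG. At 10 reads a percentage moves in steps of 10 points.

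Here methylated reads were recomputed and the strands of a CpG summed. Promoters and bodies came from GENCODE vM1 on NCBIM37, whose sequence has a CpG at 100% of the positions. Within a comparison of 4 libraries, CpGs with at least 10 reads in each and windows with at least 2 CpGs were used. A window's level is the mean of its CpG percentages. Summed reads were compared by a quasi-binomial F test with overdispersion moderated over all windows (limma's squeezeVar, rewritten in Python), and single CpGs by a binomial model with a shared overdispersion and a chi-square test. Both were adjusted by Benjamini-Hochberg over all features. Reads over more than 1 CpG were counted at every CpG they cover. An exact permutation test of 2 against 2 cannot go below 0.33. Libraries of 2 conditions that do not overlap are therefore only described, and the share of all windows without overlap is not given. The study calls the passage libraries biological replicates. For the shRNA libraries nothing in the sources used here says that replicates are separate cultures, so that their p-values measure the spread between libraries, which may be technical. The tests were checked on simulated data.

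The members and gene lists were chosen with earlier results of these data known. All members are named. Of other lists, at most 5 called windows per comparison with the largest difference are named, and of genes like a member promoter spanning 20 points, 3. Alternatives were a minimum of 20 reads, a half-width of 1 kb, TSSs of all transcripts, a shared overdispersion, a minimum of 5 CpGs, CpGs above the 99.9th percentile of reads left out, CpGs read in all 16 libraries, other differences, Fisher's exact test, strands apart, a replicate block and each library left out. Leaving out the MspI sites was added after the data were seen. The fits ran in Python 3.11.15 with numba 0.67.0, scipy 1.17.1 and numpy 2.4.6, tables in pandas 2.3.3 and plots in matplotlib 3.10.9.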

Additional observations from a re-analysis of the deposited data

How the results depend on the processing

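Replicate numbers did not pair the libraries (correlations of replicate deviations -0.013 to 0.033). A replicate block, which leaves 1 residual degree of freedom, called no member window in OP against YP, S33Y #2 against YP, either clone against OP-mESCs or EB against mESC with shCtrl (0 each). EB against mESC with shβcat #1 kept its count of 4. It took 12 of 114 single window values out of the calls and moved no count of called CpGs by over 1.5 times.

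Member windows called moved from 2 to 1 in OP against YP with a minimum of 20 reads, with TSSs of all transcripts and with at least 5 CpGs. In S33Y #2 against YP they moved from 2 to 1 with TSSs of all transcripts and at 10 points. Over CpGs read in all 16 libraries they were 3 in S33Y #1 against YP and 1 in S33Y #2 against #1. A shared overdispersion gave 1 in S33Y #2 against #1 (Dnmt3b body) and 1 in shβcat #1 against shCtrl in mESCs (Dnmt1 body). Member CpGs called in EB against mESC with shCtrl were 17 at 20 reads and 14 without MspI sites. Both settings test fewer CpGs, and the share of all CpGs called is not given. Without these sites, an alternative chosen after seeing the data, they were 12 with shβcat #1 and 1 in OP against YP. A difference of over 10 points gave 2 in S33Y #1 against YP, and Fisher's exact test 2 in S33Y #1 against OP. Leaving out the MspI sites ended 2 window calls, the Uhrf1 body in S33Y #2 against YP (-16.54 points, adjusted p = 0.0621) and the Dnmt3a body in EB against mESC with shβcat #1 (8.65 points, 0.0836), and added the Dppa3 promoter in S33Y #2 against YP (19.4 points, 0.0439). The cause of these changes was not tested.

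Without 1 library, where the lone library is assumed to vary like the others, windows called were 0 in every comparison of the passage set and both shRNA comparisons, 4 to 5 in EB against mESC with shCtrl and 2 to 4 with shβcat #1. CpGs were 1 to 3 in OP against YP, 0 to 1 in S33Y #1 against YP and against OP, S33Y #2 against OP and shβcat #1 against shCtrl in mESCs, 3 to 5 in S33Y #2 against YP, 27 to 32 in EB against mESC with shCtrl and 26 to 31 with shβcat #1. Leaving out a library leaves 1 residual degree of freedom, and the share of all windows still called is not given. A call lost there is therefore not read as a result about a member. No member window called in either setting changed its direction. Leaving out the MspI sites shifted a condition's level by up to 10.97 points (Dnmt1 body, OP-S33Y #1), summing reads by up to 7.67 and leaving out OP-mESC replicate 2 by up to 8.34.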
